A study of Mus musculus with 6 samples.

Results

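Interferon-high T cells are blood T cells that carry transcripts of the early antiviral genes that interferon switches on. Here they were picked out of single-cell RNA profiles of peripheral blood mononuclear cells from male mice aged 12 to 13 weeks. Cells were chosen by their counts of UMIs (unique molecular identifiers, each standing for a captured transcript). A barcode was kept when 200 or more genes were detected and mitochondrial UMIs made up no more than 20% of its total. It was taken as a T cell with at least 2 UMIs of Cd3d, Cd3e and Cd3g together and at most 1 UMI of the B cell genes Cd79a, Cd79b and Ms4a1 together. It was called interferon-high with at least 3 UMIs summed over a panel of 6 genes, Ifit1, Ifit2, Ifit3, Ifit3b, Cmpk2 and Oasl1. The rule found 692 cells among 13734 T cells (5.04%) and among 49025 kept cells (1.41%).

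The T2D mice carry a model of type 2 diabetes, named in the study's title as a high-fat diet with streptozotocin, which destroys insulin-producing beta cells, and the labels give an intraperitoneal streptozotocin injection. The Con mice are the healthy controls and received saline by the same route. The sources used here give neither the diet of the Con mice nor the strain. Each group has 3 libraries, and no label says whether a library holds the blood of a single mouse or of several, so each p-value speaks only of the variation from library to library. All cells had passed a density gradient for mononuclear cells and red cell lysis, and their 3′ transcripts were captured on beads in microwells with a cell label and a UMI (BD Rhapsody).

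The members numbered 131, 153 and 163 cells in T2D libraries 1 to 3, against 95, 80 and 70 cells in Con libraries 1 to 3. Whole libraries held 29329361, 32321855 and 29712873 UMIs in T2D and 25580045, 23574052 and 27157764 UMIs in Con. The summed members held 608814, 868438 and 806547 UMIs in T2D and 462868, 395832 and 369305 UMIs in Con, which is the depth behind every gene value of the class. Any pair of libraries shared between 63 and 86 of its barcode sequences, and none of the 15 pairs agreed within sampling noise over the genes of their T cells. Neutrophil transcripts were uneven among the libraries, and highest in T2D library 2: the 9 neutrophil genes fixed for this check summed to 862, 2788 and 564 UMIs per 1e6 UMIs of the class (CPM) in T2D members, against 160, 611 and 62.3 CPM in Con members.

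Type I interferon binds a receptor on the cell surface, Janus kinases then phosphorylate transcription factors, and these join IRF9 to switch on genes whose promoters hold the interferon-stimulated response element. The products of these genes bind viral RNA, halt its translation, tag proteins with the ubiquitin-like ISG15, or raise antigen presentation. Interferon gamma, made by T and NK cells, is the stronger inducer of guanylate-binding proteins and of the immunity-related GTPases. Most resting blood T cells hold few of these transcripts.

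The promoters of 2 panel genes, Ifit1 and Ifit3, and of 2 genes that the rule did not use, Isg15 and Rsad2, are shown because these genes carry the description of the class. Each window runs from 250 bases before to 50 after the start of the gene, from RefSeq on GRCm38.p6. The capitals mark GAAANNGAAA or its reverse complement TTTCNNTTTC, the letters of the interferon-stimulated response element. The windows are chr19:34640639-34640938 (plus strand) for Ifit1, chr19:34583279-34583578 (plus strand) for Ifit3, chr4:156200769-156201068 (minus strand) for Isg15 and chr12:26456403-26456702 (minus strand) for Rsad2, each printed 5′ to 3′ along its gene.
Ifit1: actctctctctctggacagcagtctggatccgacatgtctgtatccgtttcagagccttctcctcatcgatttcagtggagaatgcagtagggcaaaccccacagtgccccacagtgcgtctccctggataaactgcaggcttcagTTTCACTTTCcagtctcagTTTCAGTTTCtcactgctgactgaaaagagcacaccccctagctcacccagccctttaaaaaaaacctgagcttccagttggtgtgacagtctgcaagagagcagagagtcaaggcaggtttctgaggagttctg
Ifit3: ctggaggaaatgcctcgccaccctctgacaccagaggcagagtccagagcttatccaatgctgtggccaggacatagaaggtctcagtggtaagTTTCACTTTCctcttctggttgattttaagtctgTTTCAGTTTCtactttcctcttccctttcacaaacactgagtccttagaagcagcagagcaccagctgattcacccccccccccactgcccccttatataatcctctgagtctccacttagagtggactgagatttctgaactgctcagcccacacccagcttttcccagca
Isg15: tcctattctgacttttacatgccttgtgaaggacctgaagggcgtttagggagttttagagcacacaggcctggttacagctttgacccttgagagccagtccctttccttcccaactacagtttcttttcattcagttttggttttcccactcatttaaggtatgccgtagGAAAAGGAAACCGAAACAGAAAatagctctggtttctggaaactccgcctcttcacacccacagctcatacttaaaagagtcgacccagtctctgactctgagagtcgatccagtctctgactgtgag
Rsad2: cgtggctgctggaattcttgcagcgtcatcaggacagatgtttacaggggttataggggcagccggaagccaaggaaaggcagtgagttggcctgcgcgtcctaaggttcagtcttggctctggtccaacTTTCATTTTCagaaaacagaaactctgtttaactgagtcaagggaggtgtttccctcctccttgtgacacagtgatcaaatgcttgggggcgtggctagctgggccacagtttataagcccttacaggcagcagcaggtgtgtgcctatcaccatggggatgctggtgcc
Ifit1 and Ifit3 each held 2 matches, Rsad2 held 1, and Isg15 held 3 matches that overlap each other. The same letters, searched on both strands, stood in 3.99% of the 27025 genes with a window. Of the 6 panel genes, all with a window, Ifit1, Ifit3 and Ifit3b had a match. A match is a string of letters and not a measured binding site.

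The panel genes are described with no test, because it chose the cells. Among all T cells 9745 (71.0%) had no panel UMI, 2443 (17.8%) had 1 and 854 (6.22%) had 2, which is just outside the rule. Just inside it, 299 cells (2.18%) had exactly 3 UMIs, so these made up 43.2% of the members. Panel counts had a long tail: 88 members (12.7%) held at least 10 panel UMIs, and the highest held 38. The panel UMIs of 172 members (24.9%) came from 1 gene, while 266 members (38.4%) had at least 3 panel genes.

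Ifit1, Ifit2 and Ifit3, which encode RNA-binding tetratricopeptide proteins that hold back viral messages, gave 28.6%, 26.4% and 26.2% of the members' panel UMIs. Cmpk2, a mitochondrial nucleotide kinase beside Rsad2, gave 10.4%, Ifit3b gave 4.80%, and Oasl1, an oligoadenylate synthetase relative, gave 3.60%. Ifit1 was detected in 50% to 61.1% of members by library, against 2.74% to 4.56% of the other T cells. Ifit3 was detected in 50% to 71.6% of members, against 3.11% to 6.50% of the other T cells. Ifit3 and Ifit3b are near-identical neighbours, so the split of reads between them is uncertain.

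The label of T cell was checked against genes of the T cell receptor and its signalling. Cd3e, a chain of the receptor complex that was part of the rule, was detected in 92.0% to 98.9% of members and in 92.7% to 94.5% of the other T cells. Trac, the alpha chain constant region, stood at 1397 ± 41.5 CPM in members and 1441 ± 83.5 CPM in the other T cells, and Trbc2, a beta chain constant region, at 2023 ± 133 CPM and 2196 ± 107 CPM (SD, n = 6 libraries each). Of the 16 T cell markers, 0 were higher in members in 6 of 6 libraries, and Thy1 was lower. The members therefore carried T cell transcripts at about the level of their neighbours. B cell transcripts were also found in most of these cells. At least 3 UMIs of the 16 B cell markers stood in 97.5% to 98.9% of members by library, and in 93.8% to 97.2% of the other T cells. Ighm, an immunoglobulin heavy chain gene, had a UMI in 74.2% to 84.3% of members and 70.1% to 78.3% of the other T cells.

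**Figure D1:**
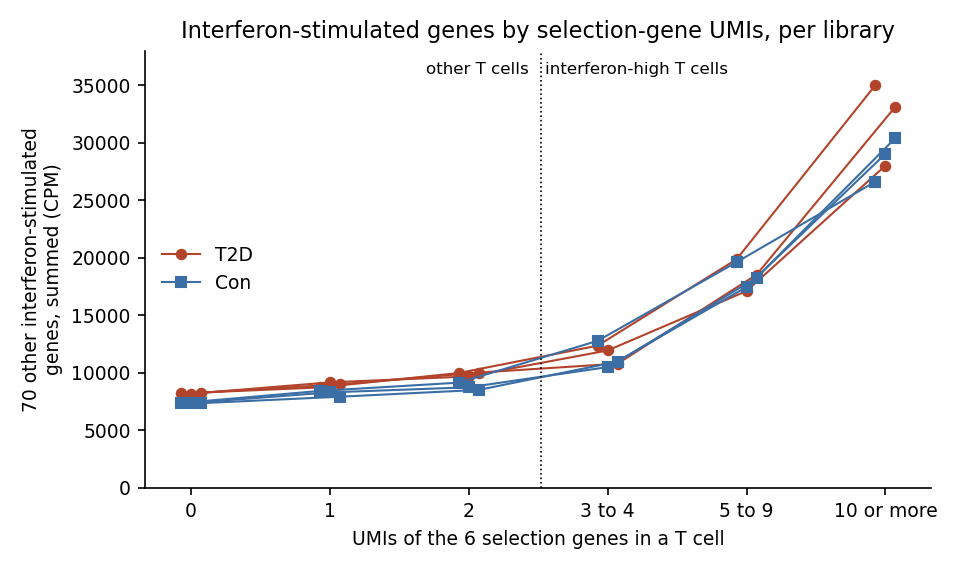
Summed level of the 70 interferon effector genes outside the panel, in CPM on the vertical axis, by the number of panel UMIs of a T cell on the horizontal axis. Each point is a library, lines join the points of a library, and the dotted line is the threshold of the class. The median of the 6 libraries is 7777 CPM in T cells without a panel UMI, 11458 CPM at 3 to 4 UMIs and 29732 CPM at 10 or more.

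Genes outside the panel climbed with the panel count, in steps rather than at a break at the threshold. The 70 measured interferon effectors summed to a library median of 7777 CPM in T cells with 0 panel UMIs, 8576 CPM with 1 and 9415 CPM with 2. They reached 11458 CPM in members with 3 to 4 panel UMIs, 18403 CPM with 5 to 9 and 29732 CPM with at least 10. The lowest library of each of the last 3 classes lay above the highest library of the class before it. These sums are no independent support for the rule, since effectors and panel come from the same cells, and the median UMI total per cell also climbed, at 3799 for 0 panel UMIs and 4803 for at least 10.

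Isg15, the ubiquitin-like protein, showed the same steps, with library medians of 6.82 CPM at 0 panel UMIs, 32.1 CPM at 3 to 4 and 326 CPM at 10 or more. Irf7, the factor that amplifies the interferon response, stood at 32.2 CPM, 86.9 CPM and 241 CPM at the same steps. The 434 members at 3 to 4 panel UMIs thus lie closer to the remaining T cells than to the 88 members at 10 or more.

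Next, the summed members of each library were set beside the summed other T cells of the same library, as log2 ratios of CPM with 10 CPM added to both, which understates the change of low genes. No test was made, because the members were chosen on expression in the same cells. Among 8104 genes of at least 10 CPM outside the rule, 357 (4.41%) were higher in members in 6 of 6 libraries, 70 (0.864%) of them at least 2-fold by the median, and 375 (4.63%) were lower in 6 of 6. The median ratio of all these genes was -0.02, against 1.10 for the interferon effectors.

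**Figure D2:**
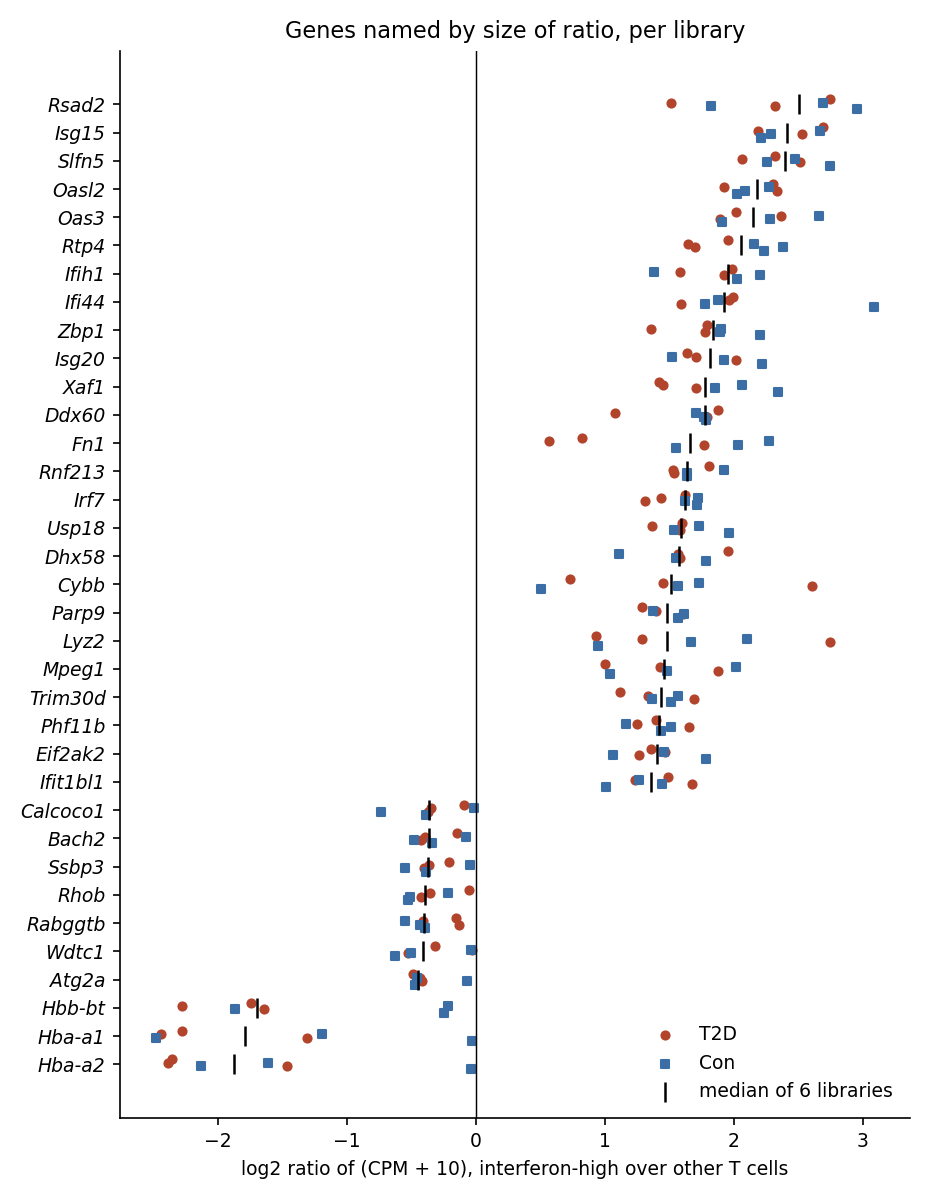
Log2 ratio of CPM in interferon-high T cells over the other T cells of the same library, for the 25 genes of largest median and the 10 of lowest median. Points are the 6 libraries and the bar is their median. The genes Rsad2, Isg15 and Slfn5 lead, at medians of 2.50, 2.41 and 2.39.

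The antiviral effectors, which block viral replication inside a cell, held more of the higher genes than any other list. Of 65 effectors of at least 10 CPM, 55 were higher in members in 6 of 6 libraries and 38 at least 2-fold. Isg15 stood at 95.3, 88.7 and 102 CPM in T2D members and at 82.1, 75.8 and 83.9 CPM in Con members. In the other T cells it stood at 8.23, 11.6 and 7.30 CPM in T2D and at 9.95, 7.57 and 4.78 CPM in Con. Every library of members lay above every library of other T cells, with a median log2 ratio of 2.41.

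Rsad2, known as viperin, which makes a chain-terminating nucleotide, had the largest ratio, at 2.50. It stood at 83.8, 50.7 and 100.4 CPM in T2D members and at 110.2, 50.5 and 70.4 CPM in Con members. The other T cells held 2.45 to 11.3 CPM. Slfn5, a Schlafen family protein, stood at 399 ± 70.4 CPM in members and 67.0 ± 6.09 CPM in the other T cells (SD, n = 6 libraries each). Usp18, which strips ISG15 from proteins and also blocks the type I receptor, stood at 68.4 ± 13.2 CPM in members and 15.3 ± 3.68 CPM in the other T cells.

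By cell, Isg15 had a UMI in a library median of 26.5% of members, against 2.86% of the other T cells and 1.38% of B cells that were not interferon-high. Members were deeper than their neighbours, with library medians of 4080 to 5012 UMIs per cell, against 3660 to 4142 in the other T cells. After each cell was thinned to 1500 UMIs, Isg15 was found in 9.60% of members and 1.19% of the other T cells. Usp18 was found in 22.2% of members and 5.63% of the other T cells unthinned, and in 9.50% and 2.33% thinned. Most members thus had no Isg15 UMI at this depth.

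Oas3 and Oasl2, of the oligoadenylate synthetase family, had median log2 ratios of 2.15 and 2.18. Rtp4, a receptor transport protein and a common marker of the type I response, had 2.06, Ifi44 1.92, Isg20, a ribonuclease, 1.81, Xaf1 1.78, Ddx60 1.77 and the large ubiquitin ligase Rnf213 1.63. Parp9 (1.48), Trim30d (1.44), Phf11b (1.42), the translation-blocking kinase Eif2ak2 (1.40) and Ifit1bl1 (1.35) completed the interferon genes among the leading 25. Of these 25 genes, 20 belong to the interferon lists.

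Of 12 sensors of nucleic acid and their adaptors, 8 were higher in 6 of 6 libraries, and the list's median log2 ratio was 0.60. Ifih1, the sensor of long double-stranded RNA known as MDA5, stood at 118 ± 26.0 CPM in members and 25.2 ± 3.58 CPM in the other T cells (SD, n = 6 libraries each), a median log2 ratio of 1.95. Zbp1, which binds Z-form nucleic acid, had a ratio of 1.84, and Dhx58 (LGP2) 1.57. Ddx58, the sensor RIG-I, had 1.04. Ifi204 and Aim2, also among the 8, had 1.71 and 0.24. In the cells without other lineages' markers, described below, Ifi204 had -0.06 and Aim2 -0.11. Ifih1 had 2.05 there, Zbp1 1.85, Dhx58 1.38, Ddx58 1.06, Tlr7 0.79 and Nlrc5 0.59.

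Of 16 signalling genes, 5 were higher in 6 of 6 libraries. Irf7 stood at 107, 120 and 134 CPM in T2D members and at 132, 129 and 127 CPM in Con members, against 31.7 to 38.0 CPM in the other T cells, with no overlap between the classes. Stat2 (1.19), Irf9 (0.62) and Irf1 (0.12) were among the others. Other interferon regulatory factors were not higher in every library, with ratios of 0.29 for Irf2, 0.19 for Irf8 and 0.06 for Irf3. The kinase Jak1 had a ratio of 0.02, the receptor chain Ifnar2 0.16 and the interferon gamma receptor chain Ifngr1 -0.16.

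Of 8 negative regulators, Usp18 alone was higher in 6 of 6 libraries, while Socs1 had a ratio of -0.11 and Socs3 of 0.03. Of 16 GTPases of the interferon gamma response, 15 were higher and 6 at least 2-fold, with a list median of 0.90. Iigp1, an immunity-related GTPase that attacks parasite vacuoles, stood at 135 ± 39.5 CPM in members and 41.3 ± 11.5 CPM in the other T cells, and the guanylate-binding protein Gbp7 at 367 ± 64.7 CPM and 142 ± 22.6 CPM (SD, n = 6 libraries each). Iigp1 had a UMI in a library median of 0.360% of the other B cells, against 9.80% of the other T cells and 26.1% of members.

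Antigen presentation genes were higher by smaller amounts. Of 19 measured, 13 were higher in 6 of 6 libraries and 1, the nonclassical class I gene H2-T24, at least 2-fold (1.03). Tapbp, which loads peptide onto class I molecules, had a ratio of 0.57, H2-T23 of 0.49 and B2m, the shared light chain, of 0.17. Class I heavy chains are close copies of each other, so single members of that family are uncertain. All 4 measured Ly6 surface genes were higher: Ly6a, which encodes Sca-1 and responds to interferon, stood at 401 ± 95.4 CPM in members and 181 ± 55.7 CPM in the other T cells (SD, n = 6 libraries each).

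The interferon genes themselves were almost absent. Of 21 interferon genes, 19 had 0 UMIs in all members together, Ifnb1 had 2 and Ifng had 55. Over all 692 members a count of 0 allows up to 0.434% of cells with a UMI of the gene, with 3 counts as the limit and for counting error only.

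By subset, 253 members (36.6%) had a Cd4 UMI and none of Cd8a or Cd8b1, 315 (45.5%) the reverse, 64 (9.25%) both and 60 (8.67%) neither. The other T cells held 34.1% CD4, 48.5% CD8, 7.30% both and 10.1% neither. Foxp3, the regulatory T cell factor, had a UMI in 7 members.

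Of 14 genes of naive T cells, 0 were higher in members in 6 of 6 libraries and 4 were lower by small amounts. These were Bach2 (-0.37), Actn1 (-0.24), Klf2 (-0.23), which keeps T cells in circulation, and Tcf7 (-0.18), which encodes the naive and stem-like T cell factor TCF1. Of 27 memory and effector genes, Ccr2 alone was higher, with a ratio of 1.08, and Klrd1 was lower at -0.17. Ccr2 is also a monocyte gene, as it stands on both lists.

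Monocyte transcripts were also higher in the class. Lyz2, the lysozyme of myeloid cells, stood at 1179 ± 302 CPM in members and 406 ± 190 CPM in the other T cells (SD, n = 6 libraries each), and Fn1 (1.66), Cybb (1.51) and Mpeg1 (1.45) were the other myeloid genes among the leading 25. Of 11 monocyte genes, 4 were higher in 6 of 6 libraries. At least 3 monocyte UMIs were found in 44.3%, 65.4% and 49.1% of T2D members and in 61.1%, 46.3% and 41.4% of Con members, against 32% to 46.6% of the other T cells. A choice made after the data had been seen left cells with no UMI of 6 myeloid and platelet markers or of Cd79a, Cd79b and Ms4a1. The 6 markers were Lyz2, Csf1r, S100a8, S100a9, Pf4 and Ppbp, and other B cell and myeloid genes were not screened. In those cells the effectors summed to 13267 to 19607 CPM by library in members and 7520 to 8643 CPM in the other T cells. Under that choice 18 of the 25 leading genes were named again by the same rule.

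Of 5 plasmacytoid dendritic cell genes of at least 10 CPM, 2 were higher, among them Bst2 (1.29), which interferon also induces. The defining markers Siglech, Klk1 and Cox6a2 had 0 UMIs in the members. The lowest genes were hemoglobins, Hba-a2 (-1.87), Hba-a1 (-1.79) and Hbb-bt (-1.69), red cell transcripts that varied widely between libraries. Below these came Atg2a (-0.45), Wdtc1 (-0.41), Rabggtb (-0.40), Rhob (-0.40), Ssbp3 (-0.38), Bach2 (-0.37) and Calcoco1 (-0.36).

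The promoter letters shown for Ifit1, Ifit3, Isg15 and Rsad2 were frequent among the genes that were higher in members. A match stood in 11 of 19 leading genes with a window (57.9%) and in 22 of 47 higher effectors with a window (46.8%). It stood in 4.84% of the 3015 genes of at least 50 CPM with a window, and in 0 of the 10 lowest genes. These shares describe a choice of genes already led by the interferon response.

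The first question of the design is whether T2D blood held more of these cells. Their share of T cells was 4.70%, 5.63% and 5.49% in T2D libraries and 6.29%, 4.65% and 3.45% in Con libraries. The groups overlapped, with the highest and the lowest library both in Con. The means were 5.27% ± 0.50 in T2D and 4.79% ± 1.42 in Con (SD, n = 3 each), and the exact two-sided permutation test gave p = 0.6, where 3 libraries against 3 cannot go below 0.1. Con library 1 held the highest share, and without it the T2D libraries lay above both remaining Con libraries by 1.23 percentage points on average. Without Con library 3, the lowest, the difference was -0.192 percentage points.

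**Figure D3:**
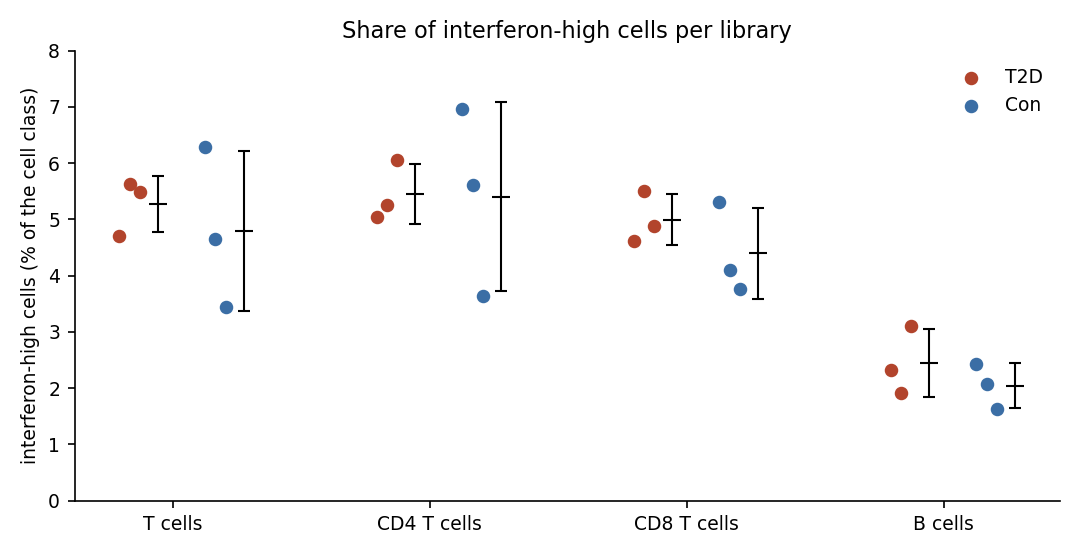
Share of interferon-high cells among all T cells, CD4 T cells, CD8 T cells and B cells, in percent, T2D left of Con. Each point is a library, and the bars beside the points are the mean and SD of 3. The T2D and Con libraries overlap in each of the 4 populations.

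The same held within subsets. Among CD4 T cells the share was 5.45% ± 0.54 in T2D and 5.41% ± 1.68 in Con (exact permutation p = 1, two-sided, n = 3 each). Among CD8 T cells it was 5.0% ± 0.46 in T2D and 4.40% ± 0.81 in Con (exact permutation p = 0.3, two-sided, n = 3 each). CD4 cells made up 40.0%, 36.7% and 52.7% of the CD4 and CD8 members in T2D, and 46.7%, 49.3% and 42.9% in Con (exact permutation p = 0.6, two-sided). The groups overlapped in each case.

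Shares of all kept cells give another view. T cells as a whole made up 31.0%, 30.8% and 36.3% of kept cells in T2D and 19.9%, 23.5% and 25% in Con. Interferon-high T cells made up 1.46%, 1.74% and 1.99% of kept cells in T2D and 1.25%, 1.09% and 0.863% in Con. The groups did not overlap in either share, and the exact permutation p of each was 0.1 (two-sided, n = 3 each), the smallest this design allows. This denominator was chosen after the data had been seen.

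B cells passed through the same panel served as the nearest comparison. Their interferon-high share was 2.33%, 1.91% and 3.10% in T2D and 2.42%, 2.08% and 1.64% in Con (exact permutation p = 0.5, two-sided, n = 3 each). The log2 odds of being interferon-high were higher for T than for B cells in 6 of 6 libraries, by 1.17 ± 0.39 in T2D and 1.25 ± 0.17 in Con (SD, n = 3 each). B cells were shallower, with library medians of 2617 to 2899 UMIs per cell. With every cell thinned to 1500 UMIs the odds difference was 0.80 ± 0.43 in T2D and -0.11 ± 0.20 in Con, where the libraries did not overlap (exact permutation p = 0.1, two-sided, n = 3 each). The gates were applied anew to the thinned counts, which left 31, 24 and 34 interferon-high T cells in T2D and 17, 11 and 9 in Con. On these few cells the excess over B cells in Con was not seen.

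The second question is which genes differed between T2D and Con within the class. Sums of UMIs per library were tested with edgeR's quasi-likelihood test and Benjamini-Hochberg adjustment, and CPM values here are scaled by TMM factors. Of 6538 genes tested, 29 passed an adjusted p of 0.05 (0.444%), 13 higher (0.199%) and 16 lower (0.245%) in T2D. All 29 had groups that did not overlap, which was true of 915 genes (14.0%). In the other T cells, with far more UMIs, 3.00% of 11437 genes were called higher and 3.00% lower, and 19 of the 29 were also called there. In all T cells together 5.76% of 11530 genes were called. The count in members depended on single libraries, with 5 calls without Con library 3, 13 without Con library 2 and 61 without T2D library 3. In members with no UMI of the screened markers (Lyz2, Csf1r, S100a8, S100a9, Pf4, Ppbp, Cd79a, Cd79b and Ms4a1), 8 genes were called.

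**Figure D4:**
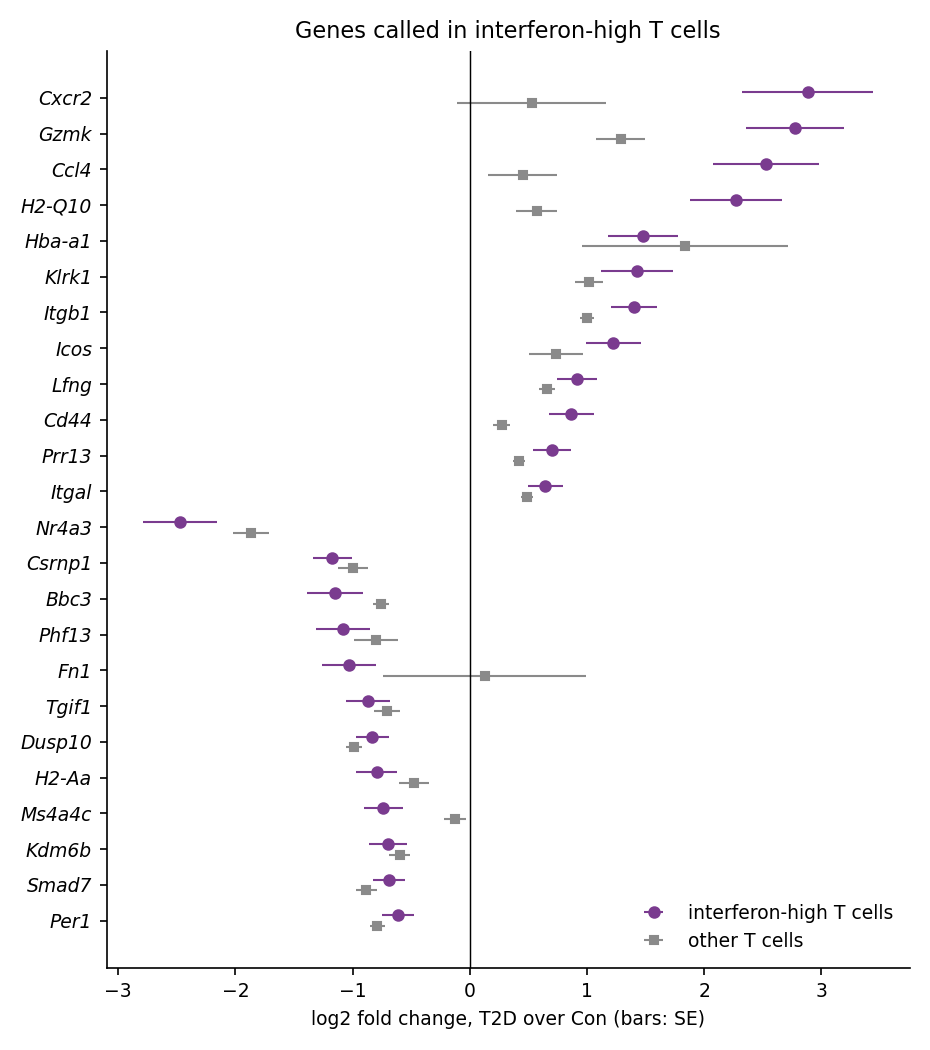
Log2 fold change of T2D over Con, with its SE, for the 24 genes named by rule, in interferon-high T cells and in the other T cells. Gzmk lies at 2.77 and 1.29 and Nr4a3 at -2.47 and -1.87, with the class given first and the other T cells after it.

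Several genes of effector and memory T cells rose. Gzmk, a granule protease of effector memory CD8 cells, stood at 83.9, 57.2 and 43.3 CPM in T2D members and at 4.57, 10.7 and 11.4 CPM in Con members. The groups did not overlap, and the log2 fold change was 2.77 ± 0.42 (SE, edgeR adjusted p = 0.000523). It rests on 50, 48 and 35 UMIs in T2D and 2, 4 and 4 UMIs in Con. These UMIs came from few cells, 15, 9 and 13 members in T2D and 2, 2 and 1 in Con. Outside the class Gzmk rose by 1.29 (edgeR adjusted p = 0.0115).

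Itgb1, the integrin beta chain that marks memory cells, stood at 680 CPM, 659 CPM and 433 CPM in T2D members and at 165, 265 and 243 CPM in Con members. Its log2 fold change was 1.40 ± 0.20 (SE, edgeR adjusted p = 0.00471), with no overlap, and 1.00 in the other T cells (adjusted p = 5.61e-07). Without Con library 3 its adjusted p was 0.0531. In members with no UMI of the screened myeloid, platelet and B cell markers it rose by 1.47 (adjusted p = 0.000408). There 4 of the 18 named genes that could be tested were called, the others being Csrnp1, Dusp10 and Smad7. Among the named genes not called there were Cd44 (0.56, adjusted p = 0.676), Klrk1 (1.12, adjusted p = 0.405), Icos (1.19, adjusted p = 0.197) and Nr4a3 (-2.26, adjusted p = 0.108), and Gzmk did not pass the filter on low counts.

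Cd44, the hyaluronan receptor of antigen-experienced T cells, stood at 277, 244 and 183 CPM in T2D members and at 107, 169 and 109 CPM in Con members. It rose by 0.87 ± 0.19 (SE, edgeR adjusted p = 0.0320), against 0.27 in the other T cells (adjusted p = 0.0481). Klrk1, the activating receptor NKG2D, rose by 1.43 ± 0.31 (adjusted p = 0.0308) and the costimulatory receptor Icos by 1.22 ± 0.23 (adjusted p = 0.0120). Lfng, a modifier of Notch receptors, rose by 0.92 ± 0.17 (adjusted p = 0.00851), Itgal, the LFA-1 alpha chain, by 0.65 and Prr13 by 0.70 (adjusted p = 0.0350 each). Of these, Icos was not called in the other T cells (0.73, adjusted p = 0.172), but its difference between the classes was not called either. Without 1 library these calls were lost, with adjusted p up to 0.245 for Cd44 (without Con 1, Con 3, T2D 1 or T2D 2), 0.246 for Klrk1 (Con 2, Con 3, T2D 1 or T2D 3) and 0.118 for Icos (Con 1, Con 2 or T2D 2). Lfng was lost only without Con 3 (0.0528), and Prr13 and Itgal without each library but T2D 3 (up to 0.193 and 0.234).

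Of 26 tested memory and effector genes, 4 rose and 0 fell in members, and 24 had a positive fold change, with a list median of 0.80 against 0.00 for all genes tested. In the other T cells 13 of 27 rose, with a median of 0.94. The summed list stood at 7959 ± 2538 CPM in T2D members and 3951 ± 938 CPM in Con members (SD, n = 3 each), without overlap. In CD8 members alone it stood at 12377 ± 3081 CPM in T2D and 5604 ± 669 CPM in Con, and in CD4 members at 2438 ± 562 CPM and 982 ± 402 CPM in the same order. In sums over cells, a larger part of memory cells and more transcript per cell cannot be told apart.

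Ccl4, Cxcr2 and H2-Q10 also rose. Ccl4, a chemokine of activated T cells and of myeloid cells, stood at 82.3, 139 and 48.2 CPM in T2D members and at 16, 18.7 and 11.4 CPM in Con members, a log2 fold change of 2.53 ± 0.45 (SE, edgeR adjusted p = 0.0246). Cxcr2, the chemokine receptor typical of neutrophils, stood at 30.2, 76.3 and 28.4 CPM in T2D members and at 4.57, 10.7 and 2.86 CPM in Con members, on 18, 64 and 23 UMIs against 2, 4 and 1 (2.88 ± 0.56, adjusted p = 0.0189). These Cxcr2 UMIs came from few cells, 5, 7 and 2 members in T2D and 2, 2 and 1 in Con. Cells with at least 3 neutrophil UMIs were 6.11%, 9.80% and 1.84% of members in T2D and 3.16%, 5.0% and 2.86% in Con, and their part in the result was not tested. H2-Q10 rose by 2.27 ± 0.39 (adjusted p = 0.00416), but it is a close copy of other class I genes and its reads are uncertain. In the other T cells Cxcr2 had a log2 fold change of 0.53 (adjusted p = 0.711) and Ccl4 of 0.45 (adjusted p = 0.469). Cxcr2 was not called without each Con library in turn or without T2D 2 (adjusted p up to 0.219), Ccl4 without each Con library in turn (up to 0.358) and H2-Q10 without Con 3 (0.0613).

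The hemoglobin gene Hba-a1 rose by 1.48 (adjusted p = 0.0189). It has a near-identical copy, Hba-a2, and red cell transcripts varied between libraries, so its value is uncertain. It was not called without each Con library in turn or without T2D 2 (edgeR adjusted p up to 0.143).

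Several genes of the early response to activation and stress fell. Nr4a3, an orphan nuclear receptor induced by T cell receptor signals, stood at 18.5, 15.5 and 9.89 CPM in T2D members and at 68.6, 75.0 and 100.04 CPM in Con members. The groups lay far apart, with a log2 fold change of -2.47 ± 0.31 (SE, edgeR adjusted p = 6.22e-05), and it fell by 1.87 in the other T cells (adjusted p = 0.000535). Csrnp1, an immediate early nuclear protein, stood at 141, 142 and 108 CPM in T2D members and at 336, 299.8 and 237 CPM in Con members (-1.17 ± 0.17, adjusted p = 0.000274).

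Dusp10, a phosphatase of the stress kinases, stood at 213, 218 and 261 CPM in T2D members and at 469, 418 and 343 CPM in Con members, and fell by 0.83 (SE 0.14, edgeR adjusted p = 0.00416). Smad7, which dampens TGF-beta signals, fell by 0.69 (adjusted p = 0.0187), the circadian gene Per1 by 0.61 (adjusted p = 0.0342) and Bbc3, the death promoter PUMA, by 1.15 (adjusted p = 0.0189). These genes were lower in the other T cells as well. The log2 fold changes there were -0.99 for Csrnp1, -0.99 for Dusp10, -0.88 for Smad7, -0.79 for Per1 and -0.76 for Bbc3 (edgeR adjusted p up to 0.0116). In members Smad7 was lost without Con 2, Con 3 or T2D 2 (adjusted p up to 0.159), and Per1 (up to 0.219) and Bbc3 (up to 0.177) without Con 2, Con 3, T2D 1 or T2D 2. Gzmk, Nr4a3, Csrnp1 and Dusp10 were the 4 of the 24 named genes that stayed called without each library in turn. By DESeq2 15 of the 24 named genes were called. With at least 2 panel UMIs 18 of 24 were called, and with at least 5 panel UMIs 3 of 23, where Dusp10 was lost. The remaining lower genes were Phf13, Fn1, Tgif1, H2-Aa, Ms4a4c and Kdm6b, with log2 fold changes between -1.08 and -0.70, and each of these was lost without 4 or more of the 6 libraries in turn.

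The early response was not lower throughout. Of 29 tested genes on that list 3 fell and 1, Dusp1 (0.64, adjusted p = 0.0350), rose, with a median of -0.19. Outside the class 10 of 35 fell and 0 rose. Fn1, a fibronectin transcript of myeloid cells, changed sign with the treatment of doublets, at 1.12 once called doublets were left out.

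**Figure D5:**
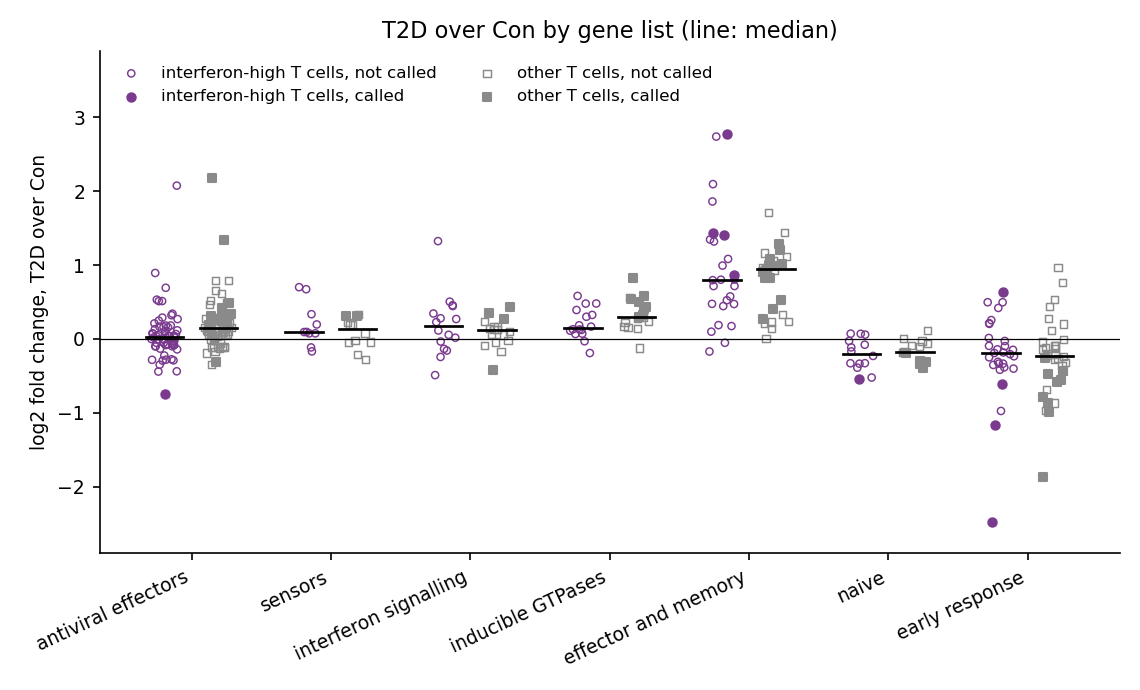
Log2 fold change of T2D over Con for the genes of 7 lists of the interferon response and of T cell state, in interferon-high T cells left of the other T cells. Each point is a gene, filled where it was called, and the line is the list's median. The effector median is 0.03 in the class and 0.15 in the other T cells, and the memory median 0.80 and 0.94.

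Almost no interferon gene of the class itself was called between T2D and Con. The rule chose members by their panel count, with which the effectors climbed, so it limits how far such genes can differ between the groups. Recovery of changes smaller than 2-fold was not simulated. The few calls therefore do not show that the interferon response was equal in T2D and Con. Of 62 effectors tested in members with edgeR 0 rose and 1 fell, with 33 positive fold changes and a median of 0.03, and 2 had an unadjusted p under 0.05 in each direction. The gene that fell was Ms4a4c, a membrane protein induced by interferon, at 104, 139 and 119 CPM in T2D members and 185, 222 and 203 CPM in Con members (-0.74 ± 0.17, SE, edgeR adjusted p = 0.0344, and up to 0.193 without Con 2, Con 3, T2D 1 or T2D 3). The 10 sensors, 16 signalling genes, 8 negative regulators, 16 GTPases, 19 antigen presentation genes and 4 Ly6 genes had 0 calls by edgeR and by DESeq2, although 8 of these 72 genes had an unadjusted p under 0.05, 7 of them with a positive fold change. Of the GTPases 14 were positive, with a median of 0.15. Uncalled genes of larger size included Slfn9 (2.07, adjusted p = 0.116) and Irf8 (1.32, adjusted p = 0.0782).

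The other T cells, where the same test had more UMIs, gave calls on these lists. Of 68 effectors 11 rose and 1, Ddx60, fell (-0.32), with a median of 0.15, and Ube2l6 (1.34), Usp18 (0.49), Xaf1 (0.43) and Epsti1 (0.33) were among those that rose. Of 17 GTPases 8 rose and 0 fell, with a median of 0.30, led by Gvin1 (0.82), Gbp3 (0.58) and Irgm2 (0.54). Irf1 (0.35), Stat2 (0.43) and Irf9 (0.27) rose as well, and so did Ifng, which encodes interferon gamma, by 1.21 (edgeR adjusted p = 0.000955). Ifng did not pass the low-count filter in members, so it was not part of the test of the difference between the classes. None of the other genes named here that entered that test was called by edgeR. That test gave 3 calls over all genes by edgeR, 1 by DESeq2 and 305 genes of unadjusted p under 0.05.

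Summed over the list, the effectors stood at 16128 ± 1054 CPM in T2D members and 15529 ± 1391 CPM in Con members (SD, n = 3 each), with overlap. In the other T cells they stood at 8511 ± 48.4 CPM in T2D and 7631 ± 95.6 CPM in Con, with none. Interferon-high B cells had 20892 ± 665 CPM in T2D and 22136 ± 1816 CPM in Con. Of the 6 panel genes, which the rule used in members, none was called over all T cells, where Cmpk2 came nearest (16.2 ± 1.88 CPM in T2D and 11.5 ± 1.67 CPM in Con, SD, n = 3 each, edgeR adjusted p = 0.0576).

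The last comparison asked whether the T2D difference was larger in interferon-high T cells than in the other T cells of the same libraries. Of 6538 genes 3 passed (0.0459%), all with the larger rise in members. Slfn4, a Schlafen gene of myeloid cells, stood at 94.0, 188 and 59.3 CPM in T2D members and at 2.29, 16.1 and 0 CPM in Con members, where a count of 0 allows up to 8.27 CPM. Few members held a Slfn4 UMI, 7, 14 and 6 cells in T2D and 1, 3 and 0 in Con. In the other T cells Slfn4 stood at 11.2, 26.6 and 11.5 CPM in T2D and 8.45, 15.3 and 4.55 CPM in Con. The difference of the log2 fold changes was 3.44 ± 0.52 (SE, edgeR adjusted p = 0.000551), and without T2D library 2 its adjusted p was 0.137.

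Chil3, a chitinase-like protein of myeloid cells, stood at 75.5, 248 and 174 CPM in T2D members and at 2.29, 5.35 and 5.72 CPM in Con members, and its difference was 4.48 (edgeR adjusted p = 0.0410). Ccl4 had a difference of 2.08 (edgeR adjusted p = 0.0106). Chil3 was not called without each Con library in turn (edgeR adjusted p up to 0.845) or without T2D 2 (0.137), and Ccl4 was not called without Con 1 (0.406), Con 3 (0.155) or T2D 2 (0.200). The T2D members, with the highest neutrophil sums in library 2, also had the highest Slfn4 and Chil3 there. None of the 3 genes passed the filter on low counts in cells with no UMI of the screened myeloid, platelet and B cell markers. In those cells 0 of 2944 genes were called by edgeR and 123 had an unadjusted p under 0.05.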

How the data were processed

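Single-cell RNA libraries of blood mononuclear cells were made on the BD Rhapsody whole-transcriptome platform, per the labels' protocols. The authors deposited UMI counts per gene and cell for 49407 barcodes and 31253 genes, and mm10, CASAVA 1.8, Seurat and UMI-tools stand in the submitters' processing notes. No ambient RNA correction is given in the sources used here, and no column of another series was present. The members and all gene lists were chosen with earlier results of these data known.

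Kept barcodes (49025) had 200 or more genes and no more than 20% of UMIs from mitochondrial genes, and T cells, B cells (at least 2 UMIs of the B cell genes, at most 1 of Cd3 genes) and interferon-high cells were gated on raw counts with no clustering. CD4 and CD8 cells had a UMI of Cd4 alone or of Cd8a or Cd8b1 alone. Doublets were not removed in the main analysis. An alternative left out 1556 barcodes scored above 0.279 by Scrublet's scheme in scanpy, with an expected rate of 0.06. Interferon-high B cells were gated with the same panel.

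Every test took the library as its unit. UMI counts were summed per library and class and tested with edgeR's quasi-likelihood method (TMM, filterByExpr, robust) at an adjusted p of 0.05 by Benjamini-Hochberg, with T2D set against Con, and with a library block for the difference between classes. Shares were tested by exact two-sided permutation of 3 libraries against 3. CPM in the members' comparison with other T cells are plain counts of the sums per 1e6, and CPM in the T2D comparison carry TMM factors. Genes were named by rule: up to 12 highest and 12 lowest called fold changes without overlap, the 25 highest and 10 lowest ratios of members to other T cells at 50 CPM or more, all called differences between classes, and the largest members of each list. Genes sharing 1 symbol (43 symbols) were kept as separate features. On simulated counts the members' test recovered 64% of genes changed 2-fold and 87% of those changed 4-fold, with 5 false calls among 6521 genes, and the test of the difference recovered 37% and 90%. Intervals and limits cover counting error only.

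Alternatives were DESeq2 size factors and tests, no low-count filter, a replicate block, other panel thresholds, thinning to 1500 UMIs, doublet removal, other pseudocounts and leaving out each library. Leaving out cells with a UMI of Lyz2, Csf1r, S100a8, S100a9, Pf4, Ppbp, Cd79a, Cd79b or Ms4a1, as markers of other lineages, was chosen after seeing the data. So was taking all kept cells as denominator. Python 3.11.15 with numpy 2.4.6, scipy 1.17.1, pandas 2.3.3, scanpy 1.11.5 and matplotlib 3.10.9 and R 4.3.3 with edgeR 4.0.16, limma 3.58.1 and DESeq2 1.42.0 were used.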

Additional observations from a re-analysis of the deposited data

Results flagged for a closer look

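For 3 genes the T2D difference was larger in interferon-high T cells than in the other T cells of the same libraries, by edgeR's test of the difference itself. For Slfn4 the log2 fold changes differed by 3.44, on 56, 158 and 48 UMIs in T2D members and 1, 6 and 0 UMIs in Con members. These UMIs came from 7, 14 and 6 cells in T2D and from 1, 3 and 0 cells in Con. For Ccl4 the log2 fold changes differed by 2.08, with 54.9, 48.5 and 31.1 CPM in T2D and 41.6, 27.4 and 29.5 CPM in Con in the other T cells. For Chil3 they differed by 4.48, on 45, 208 and 141 UMIs in T2D members and 1, 2 and 2 UMIs in Con members.

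In the members' own comparison of T2D and Con, Slfn4 had an adjusted p of 0.318 and Chil3 of 0.116 by edgeR, although all T2D libraries lay above all Con libraries. With DESeq2 the adjusted p of the difference was 0.103 for Ccl4 and 0.217 for Chil3. Neutrophil list sums of members were 862, 2788 and 564 CPM in T2D and 160, 611 and 62.3 CPM in Con, and their part in these 3 results was not tested.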

How the results depend on the processing

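The difference in share among T cells ranged from -0.192 to 1.23 percentage points without each library in turn, among CD4 cells from -0.838 to 0.829, among CD8 cells from 0.287 to 1.06, among B cells from 0.0735 to 0.668 and among all kept cells from 0.527 to 0.795. The CD4 part of CD4 and CD8 members ranged from -7.93 to 0.0695 and the log2 odds difference from -0.29 to 0.0835. The B cell difference turned to -0.142 with at least 5 panel UMIs and -0.218 with thinning, the log2 odds difference to 0.50 and 0.91, and the CD4 difference to -0.0200 without doublets. With at least 2 panel UMIs the B cell difference was 1.14 (no overlap, exact permutation p = 0.1) and the T cell difference 1.78 (p = 0.4). The cause was not tested. Calls in members numbered 5 to 61 without each library (5 without Con 3, 13 without Con 2, 61 without T2D 3), in the other T cells 204 to 613, in all T cells 198 to 566 and for the difference between classes 0 to 6. Against 29, members gave 87 calls with no low-count filter, 62 with the replicate block, 70 with at least 2 panel UMIs, 12 with at least 5, 58 without doublets and 8 in cells without other lineages' markers. The other T cells gave 1214 with no filter and 284 without those markers, all T cells 1252 with no filter, and the difference 10 with no filter, 1 by DESeq2 and 0 without those markers. Whether the replicate numbers pair the libraries was not settled. In members, deviations of same-numbered libraries correlated at -0.0153 to 0.0707, and 1 of 3 libraries in each group correlated best with its own number. In the other T cells they correlated at -0.163 to 0.115, with 0 T2D libraries and 1 Con library best with their own number. Over all T cells the range was -0.114 to 0.142, with 2 T2D libraries and 1 Con library best with their own number. Of the 10 lowest genes beside other T cells 1 was shared after thinning and 1 without other lineages' markers, and with 50 CPM added 25 genes of at least 50 CPM were at least 2-fold higher, against 60. Hba-a1 turned to -0.41 with at least 2 panel UMIs, and Fn1 to 0.00163 with at least 5 and to 1.12 without doublets. Of 403 alternatives for the 27 genes of the T2D tests 262 kept the call, 138 lost it and 3 reversed. On simulated counts at this depth 64% of 2-fold changes in members were recovered.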

Other observations

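Lists of other lymphocytes held few calls between T2D and Con in members. Of 5 tested NK cell genes all 5 had a positive fold change in members, with a median of 1.00, and 0 were called by edgeR, with 2 at an unadjusted p under 0.05, while DESeq2 called Gzma, a cytotoxic granule protease. Of 14 tested B cell genes 0 had a positive fold change, with a median of -0.44, and H2-Aa, a class II antigen presentation gene, fell by 0.79 (edgeR adjusted p = 0.0341). Most members and other T cells held B cell transcripts, and the source of these transcripts was not tested. Of 14 naive T cell genes 3 had a positive fold change, with a median of -0.20, and Satb1, a chromatin organiser of T cells, fell by 0.54 (edgeR adjusted p = 0.0189). Foxp3-bearing cells were too few for a comparison, and 4 cycling genes passed the low-count filter with 0 calls by edgeR or DESeq2 and 0 at an unadjusted p under 0.05.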
